A study of Mus musculus with 4 samples.

Results

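The genes described here are 10 genes of pericytes and vascular smooth muscle, the mural cells that wrap blood vessels: Rgs5, Cspg4, Abcc9, Acta2, Myh11, Tagln, Cnn1, Mcam, Des and Smtn. They were chosen by name, with earlier results of these data known. All 10 were found among the 21728 protein-coding genes of the GENCODE M21 annotation of mm10, the mouse genome build of the peak lists. For each gene, the ATAC-Seq peaks at its start, in its body and within 50 kb to either side were read from a peak list of GFP- heart nuclei and a peak list of GFP+ heart nuclei. ATAC-Seq cuts accessible DNA with the Tn5 transposase, so that a peak marks open chromatin.

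All libraries came from whole hearts of male mice aged 8 to 12 weeks on a C57BL/6 background, of genotype NuTRAP/Cdh5-Cre, so the GFP- and GFP+ nuclei shared both alleles. The Cre is driven by the promoter of Cdh5 (VE-cadherin). NuTRAP tags ribosomes with GFP in cells in which Cre has acted, and the nuclei were sorted by their GFP signal. The sort kept single diploid nuclei. Of these, the GFP+ nuclei are the endothelial population, and the GFP- nuclei are a mix in which mural cells are only 1 of many cell types. Each population had 2 replicate libraries, but the authors called 1 peak list from both replicates together, so no difference given below has a replicate check and no test was made. The libraries had been downsampled to a common number of reads, and the reads behind each peak are unknown here. Fewer mural nuclei and less open chromatin per nucleus cannot be told apart in sorted bulk nuclei.

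Smooth muscle cells contract through a set of genes (Acta2, Myh11, Tagln, Cnn1, Smtn) that serum response factor (SRF) and its partner myocardin switch on through a DNA element called the CArG box. Pericytes, which sit on capillaries, contract less and are recognised by Rgs5, Cspg4 and the potassium channel genes Abcc9 and Kcnj8, and Notch3 signalling through RBPJ is known to keep mural cells differentiated. Several of the 10 genes are also known outside mural cells: Des and Abcc9 in cardiomyocytes, Mcam in endothelial cells and Acta2 in activated fibroblasts.

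A start peak was a peak overlapping the 5′ end of the gene record within 250 bp to either side, and peaks were compared by area, as a percentile rank within their own list, where 100 is the largest area and 0 stands for no peak. In the GFP- list 7 of the 10 genes had a start peak, and in the GFP+ list 5 of the 10 did, beside 56.9% and 54.8% of all protein-coding genes. Rgs5 and Tagln had a start peak in the GFP- list alone, a state found in 5.46% of the protein-coding genes with a GFP- start peak. By area these peaks stood at positions 66146 and 72610 of the GFP- list, beyond the 65008 peaks that the GFP+ list holds. With the lists cut to equal length, 5 genes had a start peak in each list. Acta2, Cnn1 and Smtn had no peak at the annotated 5′ end in either list. Over all annotated transcript starts, 9 of 10 genes had a peak in the GFP- list and 6 of 10 in the GFP+ list, beside 61.8% and 59.7% of all protein-coding genes, and Cnn1 alone had none.

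All 7 genes with a start peak ranked lower in the GFP+ list than in the GFP- list by area, as did 71.6% of all protein-coding genes with a start peak, and the direction depended on the measure. The number was 6 of 7 when peaks were ranked by the -log10 p of the summit, 5 when they were ranked by area per bp, and 4 of the 5 genes that kept a peak when the lists were cut to equal length. The median difference, GFP+ minus GFP-, was -9.20 rank points over the 7 genes and -0.833 over the 12577 protein-coding genes with a start peak in either list. These sets were not matched for rank. With lists cut to equal length, the difference was -6.39 for Cspg4, -4.75 for Abcc9, -7.82 for Myh11, -6.11 for Des and 3.45 for Mcam. None of the 10 genes lost more than 20 points from GFP- to GFP+, which 7.72% of those 12577 genes did. Rgs5 and Tagln, whose start peaks were absent from GFP+, ranked only 16.2 and 7.99 in GFP- and so could not lose that many. The start peaks of the 10 genes had a median rank of 79.2 in GFP- and 76.1 in GFP+, against 90.5 and 89.3 for the start peaks of all protein-coding genes.

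**Figure D1:**
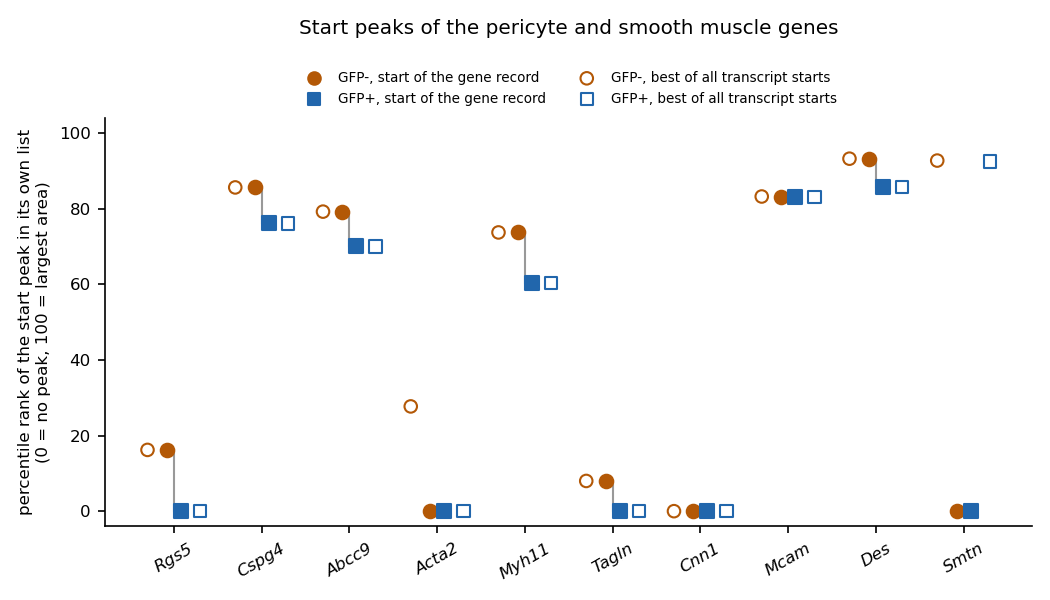
Percentile rank by area of the start peak of each gene in the GFP- list (circles) and the GFP+ list (squares), with 0 for no peak; filled symbols are the start of the gene record, open symbols the best of all annotated transcript starts, and grey lines join the lists. Cspg4, Abcc9, Myh11, Mcam and Des have a peak in both lists, Rgs5 and Tagln in GFP- alone, and Smtn reaches 92.7 and 92.5 once its other starts are counted.

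Rgs5, a regulator of G protein signalling and a widely used pericyte marker, lies on the + strand at chr1:169655501-169695813. Its start peak was 369 bp long and ranked 16.2 in GFP-, with its summit 140 bp upstream of the start. Introns held 3 more GFP- peaks, 15328, 16517 and 29980 bp into the gene, which ranked 29.1, 9.69 and 33.4. Downstream there were 2 GFP- peaks, and the higher, at rank 60.6, lay 81967 bp from the start, where the nearest protein-coding start is that of Rgs4, another gene of the family. None of these 6 GFP- peaks overlapped a GFP+ peak (0 of 6, exact 95% interval 0 to 45.9%), and the GFP+ list held no peak at all in the body and flanks of Rgs5. Among the 11986 protein-coding genes with at least 6 GFP- peaks in body and flanks, 21 (0.175%) had no GFP+ peak there, a count looked up after the peaks of Rgs5 had been seen. The limit of 6 is the number of Rgs5 itself, and genes with more GFP- peaks were counted too. The share therefore does not give how rare the pattern is among genes with 6. The Rgs5 peaks at ranks 16.2, 9.69 and 2.88 stood at positions 66146, 71267 and 76639 of the GFP- list, and the GFP+ list holds 65008 peaks.

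Cspg4 encodes NG2, a proteoglycan on the surface of pericytes, and lies on the + strand at chr9:56865033-56899870. Its start peak ranked 85.6 in GFP- and 76.1 in GFP+, with summits 9 bp apart, and also covered the start of the neighbouring gene Odf3l1. Away from the start the lists differed more at some peaks, but the median GFP+ minus GFP- difference over all shared peaks was -9.48 points, as at the start. The intronic peak 6405 bp into the gene ranked 86.7 in GFP- and 57.9 in GFP+, the intronic peak 17970 bp in ranked 74.0 and 6.75, and the peak 21181 bp upstream ranked 80.4 and 14.1. A 1239 bp peak 4443 bp upstream (chr9:56860098-56861336), inside the Odf3l1 gene, ranked 84.2 in GFP- and had no GFP+ counterpart. It was the highest-ranked peak found in GFP- alone around any of the 10 genes. The only GFP+ peak near Cspg4 without a GFP- counterpart lay 29662 bp upstream and ranked 16.5. In all, 15 of the 20 GFP- peaks overlapped a GFP+ peak, and of these 15 pairs 13 were lower in GFP+, 6 of them by over 20 points. The peak 31943 bp upstream was higher in GFP+ by over 20 points, at 14.1 in GFP- and 34.9 in GFP+. Of all shared GFP- peaks in bodies and flanks of protein-coding genes, 64.0% were lower in GFP+, and 11.6% were lower by over 20 points.

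Abcc9 encodes SUR2, the regulatory subunit of ATP-sensitive potassium channels, and lies on the - strand at chr6:142587862-142702315. Its start peak ranked 79.2 in GFP- and 70.0 in GFP+, with summits 4 bp apart. The strongest intronic peaks were in both lists, at ranks 89.4 and 83.3 for the peak 34027 bp into the gene and 76.0 and 74.0 for the peak 12437 bp in. Of its 30 GFP- peaks, 13 (43.3%) had no GFP+ counterpart, beside 28.2% of all GFP- peaks in bodies and flanks of protein-coding genes. By number this was the most of the 10 genes, while by share Rgs5 was higher, at 6 of 6. Every one of the 16 GFP+ peaks of Abcc9 overlapped a GFP- peak, beside 12.7% of all GFP+ peaks so placed that did not. The highest of the 13 was a 929 bp peak 30895 bp upstream (chr6:142732557-142733485), which ranked 83.4 and had the start of Cmas as its nearest protein-coding start. The next was an exonic peak 87868 bp into the gene, at rank 61.6. The 3′ flank of Abcc9 holds the start of Kcnj8, which encodes the pore subunit of the same channel, and that start peak ranked 83.4 in GFP- and 49.1 in GFP+. It was the only shared peak of Abcc9 that was lower in GFP+ by over 20 points, and 3 shared peaks were higher in GFP+ by over 20 points. These were the intronic peaks 67410 and 89771 bp into the gene, at ranks 14.6 and 0.860 in GFP- against 41.1 and 29.6 in GFP+, and a peak of the 3′ flank 163552 bp from the start, at 31.7 and 62.8.

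The highest-ranked peaks that were in the GFP- list alone are shown for Rgs5, Cspg4 and Abcc9. By number these genes had the most GFP- peaks without a GFP+ counterpart, against at most 3 for each of the others. They were 6 of 6 for Rgs5, 5 of 20 for Cspg4 and 13 of 30 for Abcc9. By share Cspg4, at 25%, stood below the 28.2% of all GFP- peaks in bodies and flanks of protein-coding genes. Each sequence is the 200 bp around the summit in GRCm38.p6 (mm10), read 5′ to 3′ along the gene, and capitals mark the RBPJ word TGGGAA and the MCAT word CATTCC, the word of the TEAD factors, on either strand. The windows are chr1:169737368-169737567 (+ strand) for Rgs5, chr9:56860490-56860689 (+ strand) for Cspg4 and chr6:142733110-142733309 (- strand) for Abcc9.
Rgs5, 81967 bp downstream of the start: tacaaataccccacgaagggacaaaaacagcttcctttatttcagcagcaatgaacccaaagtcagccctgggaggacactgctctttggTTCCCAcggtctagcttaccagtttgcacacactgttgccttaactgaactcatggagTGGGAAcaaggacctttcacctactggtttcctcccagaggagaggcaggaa
Cspg4, 4443 bp upstream of the start: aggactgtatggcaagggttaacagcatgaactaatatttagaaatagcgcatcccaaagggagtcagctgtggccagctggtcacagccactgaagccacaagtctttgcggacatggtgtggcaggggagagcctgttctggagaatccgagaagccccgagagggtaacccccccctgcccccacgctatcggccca
Abcc9, 30895 bp upstream of the start: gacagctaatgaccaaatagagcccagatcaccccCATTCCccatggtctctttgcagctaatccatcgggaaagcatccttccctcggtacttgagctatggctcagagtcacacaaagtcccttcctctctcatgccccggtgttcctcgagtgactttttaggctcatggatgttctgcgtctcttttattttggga
The RBPJ word is in 21.6% and the MCAT word in 13.6% of the summit windows of all GFP- peaks, and the Cspg4 window holds neither, so these matches describe the windows and mark no binding site.

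Acta2 encodes smooth muscle alpha actin and lies on the - strand at chr19:34241090-34255590. There was no peak within 250 bp of the 5′ end of its record in either list. The GFP- list held an 816 bp peak in an intron (chr19:34254199-34255014), with its summit 1261 bp into the gene, which reached the start of a shorter transcript, Acta2-202, and ranked 27.7. No GFP+ peak overlapped it. The other peaks near Acta2 were mostly in both lists, at ranks 75.6 in GFP- and 72.8 in GFP+ for the peak 10092 bp upstream, and 46.7 and 61.3 for the intronic peak 11354 bp in, which therefore ranked higher in GFP+. A GFP+ peak 28247 bp upstream, towards Fas, ranked 52.2 and had no GFP- counterpart.

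The start window of Acta2 is shown because it is the only 1 of the 8 members' windows in RefSeq's promoter table with CArG-like words, and it lay outside the peaks of both lists. The table gives 250 bases before to 50 after a start, here chr19:34255324-34255623 on the - strand in GRCm38.p6. Rgs5, Cspg4, Abcc9, Acta2, Cnn1, Mcam, Des and Smtn were matched by symbol, and Myh11 and Tagln were not. A CArG-like word is a CArG box with at most 1 base other than A or T in its centre. The Acta2 start window has 2 of them, beginning 84 and 34 bases before the start, and 0.822% of the 32851 windows of the table hold at least 2. The 34-base word overlaps an RBPJ word, and an MCAT word begins 146 bases before the start.
Acta2, start window: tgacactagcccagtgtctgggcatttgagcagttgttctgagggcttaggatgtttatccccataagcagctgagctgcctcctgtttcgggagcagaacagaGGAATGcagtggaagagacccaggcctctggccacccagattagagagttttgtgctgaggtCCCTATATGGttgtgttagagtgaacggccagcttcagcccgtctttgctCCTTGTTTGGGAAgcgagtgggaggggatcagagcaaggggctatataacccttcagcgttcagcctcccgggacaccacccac
Acta2, intronic GFP- peak, 200 bp around the summit: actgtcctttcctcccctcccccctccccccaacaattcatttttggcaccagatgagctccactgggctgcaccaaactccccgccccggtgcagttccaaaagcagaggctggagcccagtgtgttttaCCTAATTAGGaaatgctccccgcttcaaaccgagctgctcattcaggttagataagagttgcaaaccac
The second sequence, chr19:34254229-34254428 on the - strand, holds a CArG box without a mismatch, which 1.12% of the summit windows of all GFP- peaks have. Capitals mark CArG-like, MCAT and RBPJ words.

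Myh11, the smooth muscle myosin heavy chain, lies on the - strand at chr16:14194535-14291372. Its start peak was 614 bp long at rank 73.7 in GFP- and 323 bp long at rank 60.3 in GFP+, with summits 12 bp apart. Ranked by area per bp, the shorter GFP+ peak stood at 82.2 and the GFP- peak at 77.2, which turns the direction. An intronic peak 32276 bp into the gene (chr16:14258811-14259258) ranked 60.9 in GFP- and was absent from GFP+. The intronic peaks 37566 and 53865 bp in were in both lists, with ranks of 61.3 and 52.7 in GFP- against 58.4 and 47.8 in GFP+. Of the 5 GFP+ peaks around the 10 genes that had no GFP- counterpart, 2 belonged to Myh11, at ranks 27.9 in an exon near its 3′ end and 25.2 in its 3′ flank, inside the Nde1 gene.

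Tagln encodes transgelin (SM22 alpha), an actin-binding protein of smooth muscle, and lies on the - strand at chr9:45929619-45936058. Its start peak was small, 331 bp long at rank 7.99 in GFP-, and was absent from GFP+. The 200 bp around that summit hold CArG boxes, 2 in number. Stronger peaks lay just upstream in both lists, at ranks 57.0 in GFP- and 46.9 in GFP+ for the peak 1090 bp from the start, and 76.3 and 70.3 for the peak 2239 bp away, which is inside the Sidt2 gene. No peak of either list had its summit in the body of Tagln, and 2 GFP- peaks in the 3′ flank, 18214 and 18764 bp from the start, ranked 49.5 and 21.8 and had no GFP+ counterpart.

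Cnn1, which encodes calponin, lies on the + strand at chr9:22099216-22109630. It had no start peak, no peak in its body and none in its 3′ flank in either list. The nearest peak lay 3046 bp upstream and ranked 73.7 in GFP- and 67.6 in GFP+. The remaining peaks of its 5′ flank lay 13692 bp or more away and were mostly at starts or within bodies of Ecsit, Zfp653 and Elavl3. Of its 7 GFP- peaks, 6 overlapped a GFP+ peak, beside 28.2% of all GFP- peaks in bodies and flanks of protein-coding genes that did not. The peak in GFP- alone lay 44212 bp upstream and ranked 10.8.

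Smtn encodes smoothelin, found in contractile smooth muscle, and lies on the - strand at chr11:3517523-3540612. The 5′ end of its record is set by 1 transcript and carried no peak. The starts of 6 other transcripts, 1320 to 1373 bp further in, shared a peak at rank 92.7 in GFP- and 92.5 in GFP+, and the internal start of Smtn-201, 12675 bp in, had a peak at 87.7 and 87.1. The highest-ranked peak of the gene, intronic and 5057 bp from the start, was at 96.0 in GFP- and 93.9 in GFP+. The lists parted at some peaks of the 5′ flank, where the peak 2566 bp upstream ranked 76.3 in GFP- and 27.8 in GFP+, and the peak 34811 bp upstream ranked 60.9 and 24.0. The peak 19769 bp upstream went the other way, at 26.2 in GFP- and 45.2 in GFP+, and the peak 32754 bp upstream ranked 76.1 and 74.6. The 3 GFP- peaks without a GFP+ counterpart were an intronic peak 3380 bp from the start, at rank 20.3, and lower-ranked peaks 8821 bp in and 7581 bp upstream.

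Mcam encodes CD146, an adhesion molecule of pericytes, smooth muscle and endothelial cells, and lies on the + strand at chr9:44134469-44142727. Its start peak ranked 83.2 in GFP- and 83.1 in GFP+ by area, and 54.5 and 56.4 by the -log10 p of the summit, which turns the direction. By area per bp the ranks were 35.4 in GFP- and 15.5 in GFP+. It was the only start peak of the 10 genes that was longer in GFP+, at 2654 bp against 1910 bp, but it also spanned a second GFP- peak of 618 bp at rank 16.5, and the 2 GFP- peaks together covered 2528 bp. The large upstream peak 4289 bp from the start ranked 90.0 in GFP- and 90.6 in GFP+. A GFP+ peak 7038 bp upstream, at rank 24.1, had no GFP- counterpart, and 2 GFP- peaks downstream, at ranks 35.5 and 15.6, had no GFP+ counterpart.

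Des encodes desmin, the intermediate filament of muscle, and lies on the + strand at chr1:75360329-75368579. It had the highest-ranked start peak of the 10 gene records in both lists, at 93.2 in GFP- and 85.7 in GFP+, and the GFP- peak was 2.02 times as long (2090 and 1036 bp). The GFP- peak also spanned a second GFP+ peak of 596 bp, with its summit 860 bp upstream, at rank 63.6, and the 2 GFP+ peaks together covered 1632 bp. By area per bp the ranks were 73.0 in GFP- and 81.1 in GFP+, which turns the direction. A second peak over an exon, 1617 bp in, ranked 86.1 and 83.1. A 1394 bp peak 15867 bp upstream (chr1:75343977-75345370), at rank 70.3, was in GFP- alone, and its 200 bp around the summit are shown because they lie upstream of the strongest start peak, and they hold none of the 3 words. The window is chr1:75344362-75344561 on the + strand.
Des, 15867 bp upstream of the start: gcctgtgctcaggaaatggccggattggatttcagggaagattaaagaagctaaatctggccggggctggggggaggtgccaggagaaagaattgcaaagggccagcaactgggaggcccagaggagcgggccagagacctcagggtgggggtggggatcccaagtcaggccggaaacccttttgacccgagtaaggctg
All 17 GFP+ peaks of Des overlapped a GFP- peak, and 16 of its 18 GFP- peaks overlapped a GFP+ peak. Among all peaks in bodies and flanks of protein-coding genes, 12.7% of GFP+ peaks and 28.2% of GFP- peaks overlapped none of the other list. Most of its 3′ flank is the neighbouring gene Speg, a kinase gene of striated muscle, where a peak 21758 bp from the Des start ranked 80.5 in GFP- and 39.1 in GFP+.

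**Figure D2:**
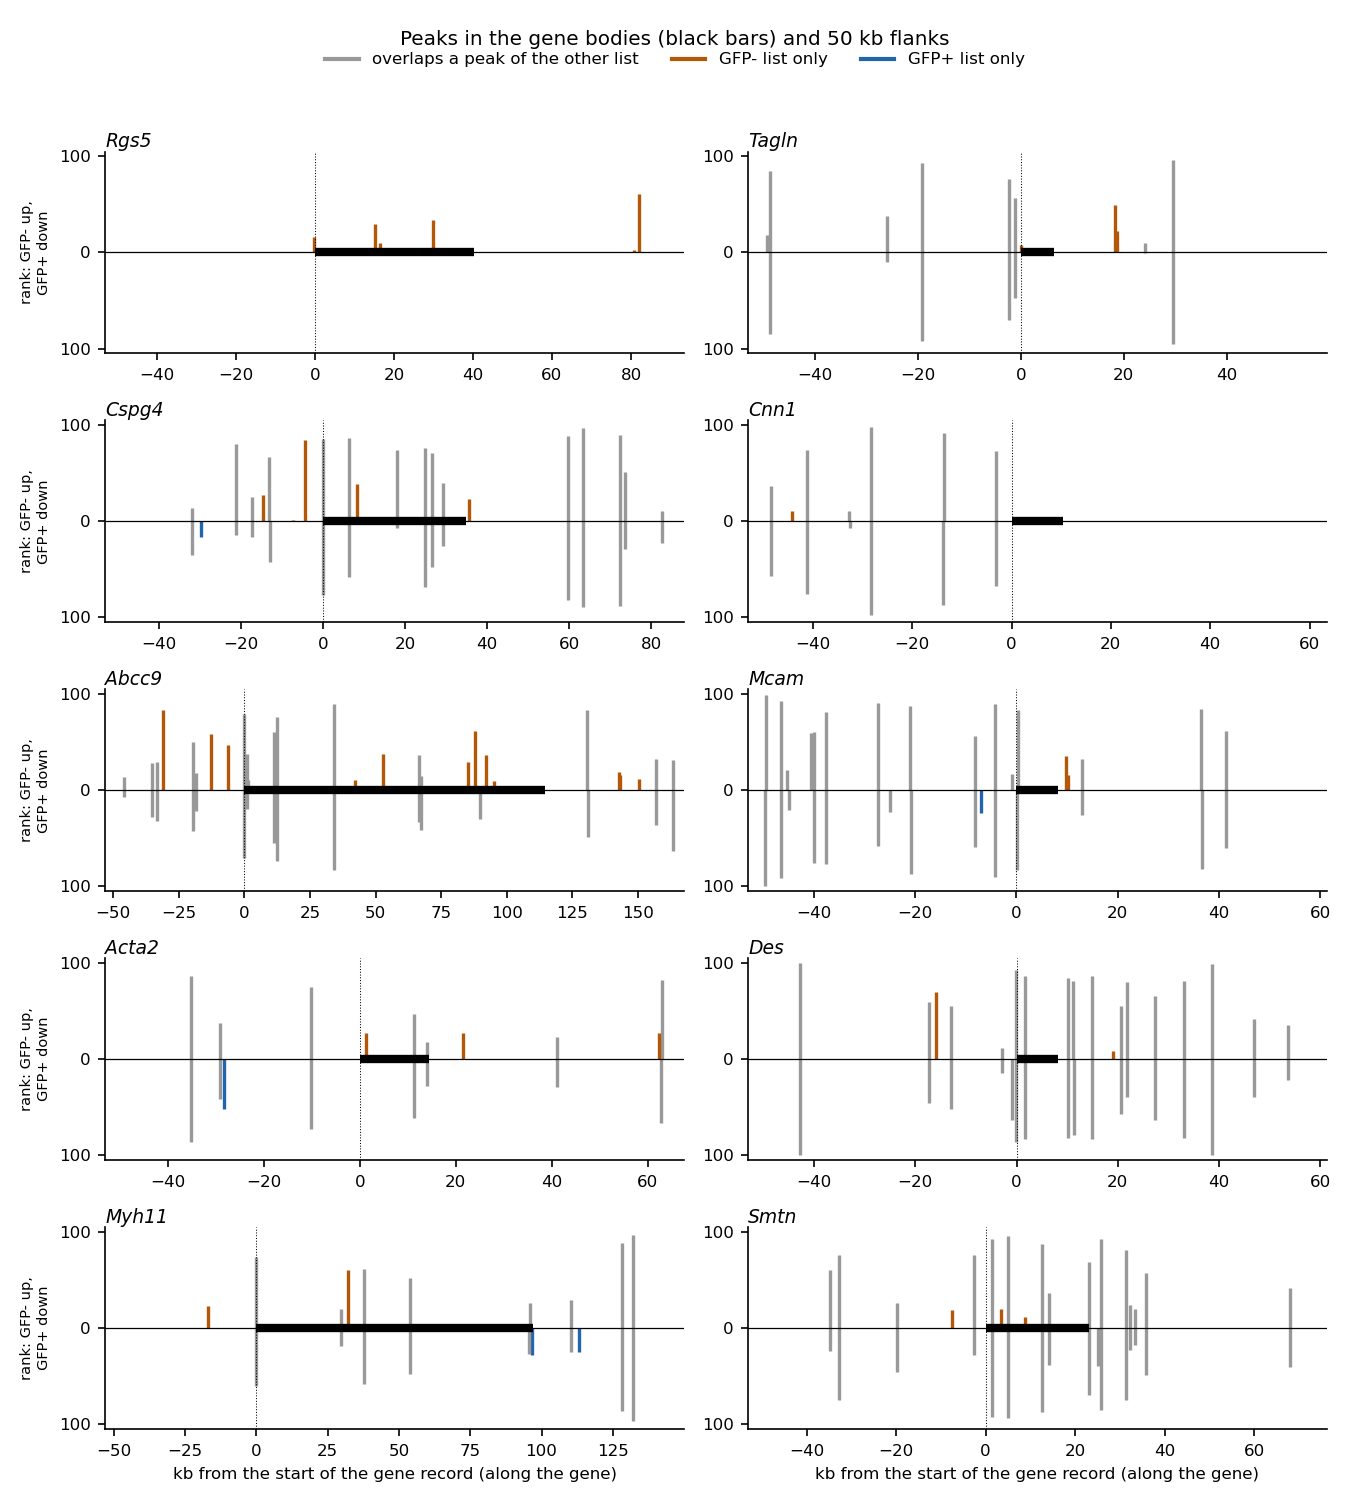
Peaks of the 10 genes by the distance of the summit from the start of the gene record, in kb along the gene, with the percentile rank in the GFP- list drawn upwards and in the GFP+ list downwards; black bars are gene bodies. Grey peaks overlap a peak of the other list, brown ones are in GFP- alone and blue ones in GFP+ alone, so that Rgs5 shows 6 brown peaks and nothing below the line, while Des and Smtn are largely mirrored.

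Over all 10 genes, 147 GFP- peaks and 111 GFP+ peaks had their summit in the bodies and flanks, a median of 14 and 12.5 peaks per gene against 6 and 5 for all protein-coding genes. Of the 147 GFP- peaks, 40 (27.2%) overlapped no GFP+ peak, beside 28.2% of all GFP- peaks in the bodies and flanks of protein-coding genes. The shared 107 are 72.8% (exact 95% interval 64.8 to 79.8%, which covers counting error only). Of the 111 GFP+ peaks, 5 overlapped no GFP- peak, beside 12.7% of all GFP+ peaks so placed, and the shared 106 are 95.5% (89.8 to 98.5%). The share of GFP- peaks found in GFP+ ran from 0 of 6 for Rgs5 and 17 of 30 for Abcc9 to 16 of 18 for Des. The flanks hold starts of other genes, and 17 of the 147 GFP- peaks reached a start of another protein-coding gene.

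Introns held 32 GFP- peaks, of which 13 (40.6%) had no GFP+ counterpart, beside 33.4% of intronic GFP- peaks of all protein-coding genes. The shared 19 are 59.4% (exact interval 40.6 to 76.3%), and of the 13 peaks without a counterpart 5 were in Abcc9 and 3 in Rgs5. All 18 intronic GFP+ peaks overlapped a GFP- peak (exact interval 81.5 to 100%), beside 15.8% of intronic GFP+ peaks of all protein-coding genes that did not. In exons, outside the start, 6 of 7 GFP- peaks were shared, and in the flanks 77 of 101 were. For exons alone and flanks alone no share over all protein-coding genes was computed, so these counts have no comparison.

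Most of the 40 peaks found in GFP- alone were small. Only 7 of them ranked 50 or higher, among 75 GFP- peaks of that rank around the 10 genes, beside 11.6% of all GFP- peaks of that rank in bodies and flanks that overlapped no GFP+ peak. The 7 were the peaks of Cspg4 at 84.2, of Abcc9 at 83.4, 61.6 and 59.0, of Des at 70.3, of Myh11 at 60.9 and of Rgs5 at 60.6. Of the 107 shared peaks, 76 (71.0%) ranked lower in GFP+, beside 64.0% of all shared GFP- peaks in bodies and flanks, and the median difference was -2.18 rank points against -1.64 for all. Of the 107, 12 (11.2%) were lower in GFP+ by over 20 points, beside 11.6% of all, and Cspg4 held 6 of the 12. In the other direction 6 of the 107 were higher in GFP+ by over 20 points, 3 of them at Abcc9, beside 6.06% of all.

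**Figure D3:**
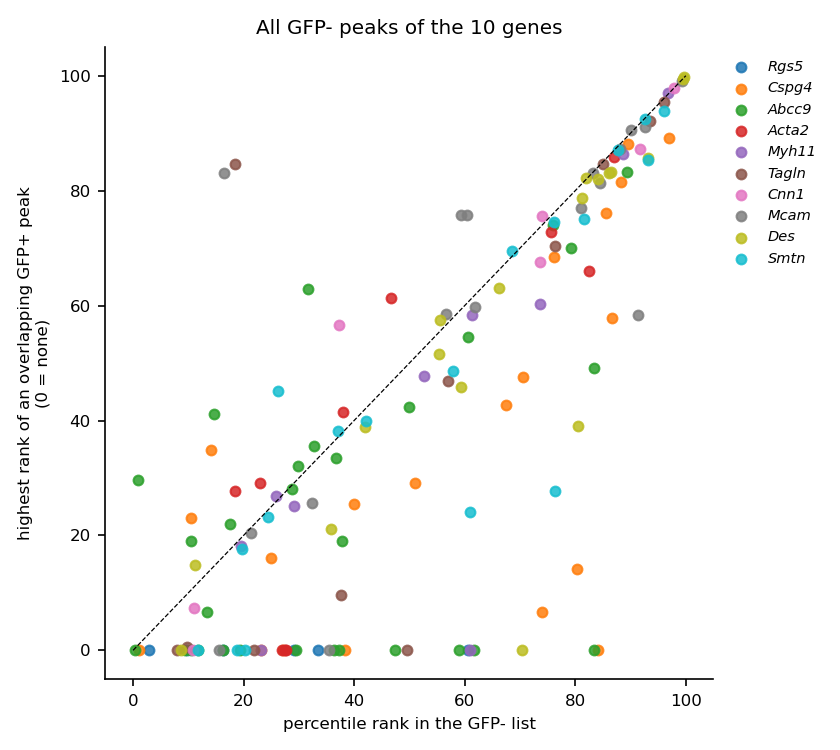
Percentile rank by area of each of the 147 GFP- peaks of the 10 genes (x axis) against the highest rank of a GFP+ peak that overlaps it (y axis, 0 for none), coloured by gene, with a dashed line at equal ranks. Peaks above rank 90 lie near the line apart from 1 of Mcam, the 40 peaks without a counterpart lie on the x axis, and of the 15 shared Cspg4 peaks 13 lie below the line, 6 of them by over 20 points.

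Summits coincided where start peaks were shared. The distance between the GFP- and the GFP+ summit was 4 to 12 bp for Abcc9, Cspg4, Myh11 and Des and 124 bp for Mcam. The GFP- peak was the longer for 4 of the 5 genes, by a factor of 1.23 for Abcc9, 1.44 for Cspg4, 1.90 for Myh11 and 2.02 for Des, and the factor was 0.720 for Mcam. The factors of Des and Mcam compare single peaks, and in both genes the longer peak spanned 2 peaks of the other list.

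The start windows of the genes differed in CpG content, the ratio of CpG pairs observed to those expected from C and G content. Among the 8 members in RefSeq's table the ratio was 0.239 for Cnn1, 0.270 for Acta2, 0.294 for Rgs5 and 0.344 for Des, and between 0.466 and 0.733 for Smtn, Abcc9, Cspg4 and Mcam. The 4 genes at 0.4 or more all had a peak in both lists at the RefSeq start, where 77.6% of such windows in the table had a GFP- peak and 75.7% a GFP+ peak. Of the 4 genes below 0.4, Rgs5 and Des had a GFP- peak and Des had a GFP+ peak, where 15.1% and 12.7% of such windows had them. The MCAT word was in 3 of the 8 windows and the RBPJ word in 3, against 14.7% and 25.6% of all windows. A CArG box was in 0 of the 8 windows and a CArG-like word in 1, against 1.63% and 9.98% of all windows. Around the summits of the 147 GFP- peaks, 5 windows held a CArG box (3.40%, against 1.12% of all GFP- peaks), 41 an RBPJ word (27.9% against 21.6%) and 10 an MCAT word (6.80% against 13.6%). Of the 5 windows with a CArG box, 3 were in peaks that overlapped a GFP+ peak. The 111 GFP+ peaks had similar shares: 2.70% for the CArG box (1.08% of all GFP+ peaks), 27.9% for the RBPJ word (20.1%) and 6.31% for the MCAT word (12.7%). No test was made of these shares, and neighbouring peaks of 1 gene are not independent.

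Beside these genes stood a list of 25 genes of the SRF pathway and of mural cells, named from general knowledge but with earlier results of these data known. Of the 25, 20 had a start peak in GFP- and 16 in GFP+, 18 ranked lower in GFP+ and 2 higher, and the median difference was -5.97 points. The regulators at the head of the list hardly differed: Srf ranked 99.9 in both lists, Myocd (myocardin) 85.4 in GFP- and 83.8 in GFP+, Mrtfa 97.1 and 96.8, and Mrtfb 90.1 and 91.4. The 6 genes whose GFP+ rank was over 20 points below the GFP- rank, picked out after their values were seen, were Ndufa4l2 (75.4 and 0), Myl9 (78.5 and 6.05), Gucy1a1 (72.0 and 0), Notch3 (49.6 and 0), Vtn (42.4 and 0) and Kcnj8. Notch3 is the Notch receptor of mural cells, Myl9 a regulatory myosin light chain of smooth muscle, Gucy1a1 a subunit of the nitric oxide receptor and Vtn vitronectin. Thus 6 of 20 of these genes passed the 20-point mark at the start and 0 of 7 of the 10 genes did, beside the 7.72% given above, though Rgs5 and Tagln ranked too low in GFP- to pass it. Over all annotated starts the counts were 8 of 22 and 1 of 9 (Acta2), beside 7.34% of all protein-coding genes with a peak at any annotated start. No test of these differences was made.

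The sort was checked with marker lists at the start of the gene record. Of 8 endothelial markers, 4 had a start peak in GFP- and 6 in GFP+, with 5 ranking higher in GFP+ (Cdh5 18.0 and 85.3, Kdr 74.3 and 90.0) and Tek lower. When all annotated starts were counted, 5 of the 8 had a peak in GFP- and all 8 in GFP+, and 7 ranked higher in GFP+. Of 8 fibroblast markers, 6 had a start peak in GFP- and 1 in GFP+, and all 6 lost over 20 points in GFP+ (Dpt 51.5 and 0, Col1a1 95.6 and 0). Over all annotated starts 3 fibroblast markers had a peak in GFP+ and 4 of 6 lost over 20 points, since Col1a1 then ranked 95.6 and 80.7 and Pdgfra 96.5 and 87.0. All 8 cardiomyocyte markers had a start peak in both lists, and their median difference was -0.986 points. Of 4 macrophage markers, 1 had a start peak in either list, Cd68 at 31.8 and 16.8. Differences at fibroblast genes thus moved in the direction of those at the 10 genes, and their part in the values of Acta2, Cspg4 and the other genes was not tested. The start peak of Des stayed high in GFP+ as those of the cardiomyocyte markers did, and the part of these nuclei in it was not tested either.

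**Figure D4:**
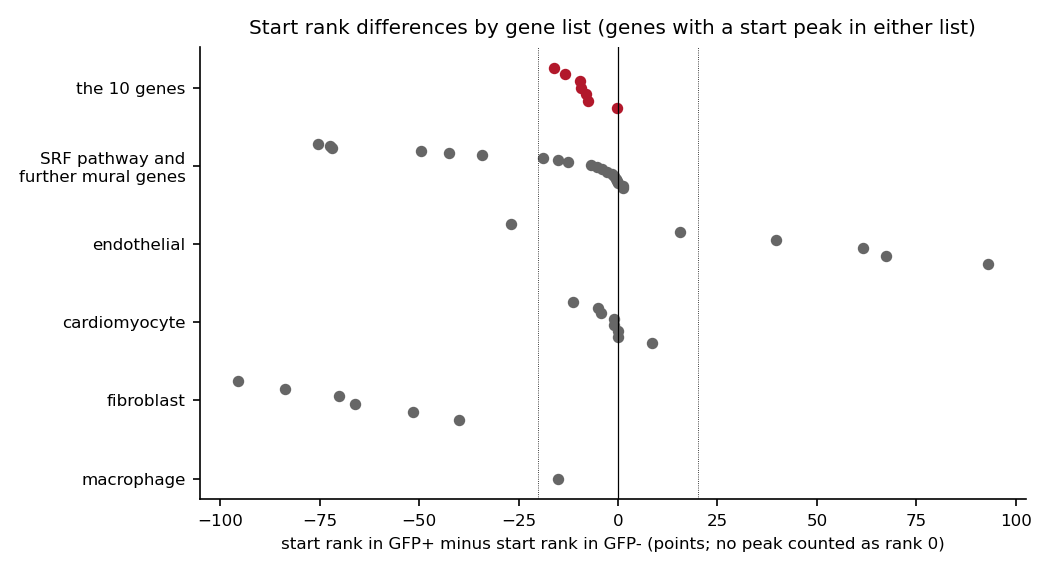
Start rank in GFP+ minus start rank in GFP- (x axis, percentile points, no peak counted as rank 0) for each gene with a start peak in either list, by gene list; dotted lines mark 20 points to either side. The 10 genes (red, 7 with a start peak) lie between -16.2 and -0.142, with a median of -9.20. The cardiomyocyte markers lie between -11.3 and 8.44, with a median of -0.986. Of the red points only Rgs5 (-16.2) and Myh11 (-13.4) lie outside that range, and by area per bp Myh11 turns to 5.0. Rgs5 and Tagln have no GFP+ start peak, so their points are set by their low GFP- ranks. All 6 fibroblast markers with a peak at the start of the gene record lie more than 20 points below 0, which 4 of 6 do over all annotated starts.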

How the data were processed

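ATAC-Seq libraries of sorted nuclei (2 GFP-, 2 GFP+) were grouped by their labels. The authors' steps were trimming (fastp), alignment to mm10 (bowtie2, 2.3.5.1 in the submitters' processing notes), a quality filter (samtools), removal of duplicates (Picard) and downsampling, before Genrich called peaks in its ATAC-seq mode outside the Y chromosome, the mitochondrial genome and blacklisted regions. In the deposited lists the area is a signal that the authors' caller summed over each peak, and the deposited -log10 p-value belongs to the summit. The list of GFP- nuclei held 78912 peaks and that of GFP+ nuclei 65008, and 69.7% and 86.6% of them overlapped a peak of the other list. Downsampling evens depth, but a longer list still shifts percentile ranks.

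Here, peaks overlapping by at least 1 bp counted as shared, intervals are exact binomial, and sequence came from GRCm38.p6. Tools were scipy 1.17.1, pysam 0.24.0, pandas 2.3.3, numpy 2.4.6 and matplotlib 3.10.9 under Python 3.11.15. Overlap and start steps were tested on simulated data and differed from a direct comparison in 0 of 1100 cases. All 10 genes are described. Per gene, the start peak and the highest-ranked peak found in 1 list alone are named, where there is one. Genes and lists were chosen with earlier results of these data known. The result of 1 further marker list is not reported here.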

Additional observations from a re-analysis of the deposited data

How the results depend on the processing

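With a 1000 bp window 9 genes had a start peak in GFP- and 7 in GFP+, and with all transcript starts 9 and 6 did. With lists cut to equal length, and with peaks of rank 50 or more, 5 genes had a start peak in each list. The difference of 7 against 5 was thus absent under both of these settings. All of these counts lay within 1.5 times the values given. With a 1000 bp window, and with all transcript starts, 1 gene (Acta2, through its intronic peak) lost over 20 points in GFP+, and 4 genes ranked lower by any amount with equal list lengths. By area per bp the start difference turned to 5.0 for Myh11 and 8.05 for Des, and for Mcam it turned to 1.88 by the summit -log10 p and 3.45 with equal list lengths but was -19.9 by area per bp. By area per bp it was also -15.8 for Abcc9 and -9.56 for Rgs5, and by the summit -log10 p it was -10.1 for Rgs5 and -7.27 for Myh11. The share of GFP- peaks in bodies and flanks that overlapped a GFP+ peak was 60.5% with an overlap of at least 50% of each peak and 90.7% for peaks of rank 50 or more, where the intronic share was 91.7%. The share of GFP+ peaks that overlapped a GFP- peak was 88.3% with equal list lengths and 80.2% with the 50% overlap. The cause of these shifts was not tested. Of 66 alternative values, 48 stayed within the limits set for them. No paired analysis was possible because each deposited list pools both replicates, and for the same reason no replicate could be left out. The number of reads behind each peak is unknown here, so a peak absent from a list was not detectable under the authors' threshold, which does not make the chromatin closed.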
